A study of Homo sapiens with 6 samples.

Results

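The genes described here carry antigen presentation by MHC class I. They were taken by name, as the rows of the count files whose Ensembl identifier maps to HLA-B, HLA-C, HLA-E, B2M, TAP1, TAP2, TAPBP, PSMB8 and PSMB9, which gave 9 of the 60483 gene rows in each file. All 9 passed the filter on low counts and were tested. RNA-seq was performed on 253J, an established line of human bladder cancer cells, at passage 16 to 19, in 3 libraries from cells that received FTO siRNA (siFTO replicates 4, 5 and 6) and 3 libraries from cells that received control siRNA (control replicates 1, 2 and 3). The labels name siRNA for each group, whereas the study's methods describe short hairpin RNAs in a lentiviral vector, and no time after transfection is stated for these libraries. FTO is an enzyme that removes N6-methyladenosine from RNA. Whether the replicates were separate cultures is not given in the sources used here, so a p-value reflects the spread among these libraries alone, and that spread may be technical.

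MHC class I molecules display short peptides from inside the cell to T cells and natural killer cells. Proteins are cut by the proteasome, in part by the interferon-inducible immunoproteasome, and the peptides are pumped into the endoplasmic reticulum by the transporter TAP. There tapasin and other chaperones load them onto a heavy chain paired with β2-microglobulin, without which classical class I molecules do not reach the cell surface. Tumour cells are known to lose parts of this route.

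Libraries held 13547263, 15709975 and 13162731 counted reads in siFTO replicates 4, 5 and 6, against 10991789 to 19891269 in the controls. FTO itself stood at 20.2, 20.7 and 15.7 CPM (read counts scaled to library size with TMM factors) in siFTO replicates 4, 5 and 6, and at 31.8, 21.4 and 31.2 CPM in control replicates 1, 2 and 3. In edgeR's quasi-likelihood test with Benjamini-Hochberg adjustment FTO fell by 0.57 on the log2 scale (standard error 0.16, adjusted p = 0.0209). The call was lost without control replicate 1 (adjusted p = 0.107) or 3 (adjusted p = 0.113). Over all 14965 genes tested, 19.5% were called higher and 17.9% lower in siFTO at an adjusted p under 0.05 from edgeR, so 52.0% of calls were higher, against 69.6% with library totals alone as scaling, which moved the median log2 fold change of all genes to 0.13, and 41.3% after correcting for the length and GC content of transcripts. The siFTO replicates 4 and 5 stand apart from the other 4 libraries. The 12 mesenchymal markers summed to 2034.4 and 2506.3 CPM there, and to 36.9 CPM in siFTO replicate 6, against 23.9 to 25.5 CPM in the controls. The called genes of the set are therefore also given with those 2 libraries left out, which sets siFTO replicate 6 alone against the 3 controls and assumes that it varies as the controls do. The 7 epithelial markers were each present at 64.3 CPM or more in every library. Most of the 9 urothelial markers were not: the uroplakin UPK1B was at 0 counts in all 6 libraries, and UPK1A, UPK2, UPK3A, GATA3, KRT5 and TP63 stayed under 1 CPM, so only KRT20 and PPARG of that list were clearly present.

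At the level of the whole set, 1 of the 9 genes (B2M) was called higher and 4 (HLA-B, HLA-C, HLA-E and PSMB8) were called lower in siFTO, against a background of 19.5% and 17.9% of all genes tested. The median log2 fold change was -0.21 for the 9 genes and 0.0057 for all genes tested. In 5 of the 9 genes (the called 4 and TAPBP) every siFTO library lay below every control library, as did 25.6% of all genes tested, and in none did every siFTO library lie above every control, as did 25.8% of all genes. With siFTO replicates 4 and 5 left out, 1 siFTO library remained, and the called genes are given by their log2 fold change in edgeR. It was -0.44 for HLA-B, -0.20 for HLA-C, -0.50 for HLA-E, -0.60 for PSMB8 and -0.36 for B2M. No other tool was run on those 4 libraries.

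**Figure D1:**
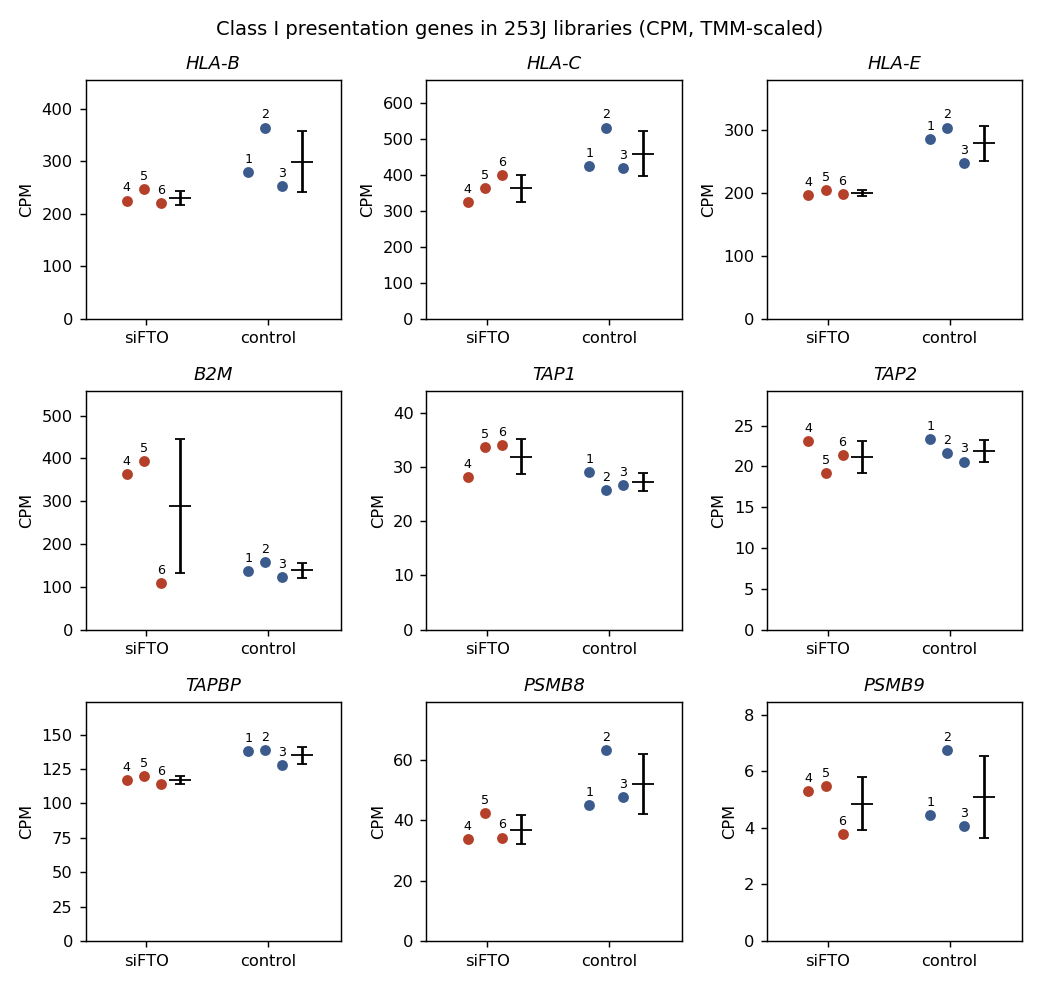
CPM of the 9 class I presentation genes on TMM-scaled library sizes, siFTO left and control right in each panel. Points are libraries with their replicate number, and the bar beside each group is the mean and SD of its 3 libraries. B2M lies at 364 and 393 CPM in siFTO replicates 4 and 5 and at 108 CPM in siFTO replicate 6, against 124 to 158 CPM in the controls.

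The promoter windows of the called genes are printed because heavy chains and B2M, which are known to share upstream control by interferon and by the class I transactivator NLRC5, moved apart in siFTO replicates 4 and 5. Windows of RefSeq (GRCh38.p14, 250 bases before and 50 from the start site on) were matched by symbol for 8 of the 9 genes, with 10 windows, and none was matched for HLA-E. Each is given 5′ to 3′ on the strand of its gene. Capitals mark matches on either strand to GAAANNGAA (the core of the interferon-stimulated response element), TTCNNNGAA (the gamma-activated site), GGGANTTCC (an NF-κB site) or the CCAAT box. A match is a description of letters and not of a bound site.
B2M, chr15:44711267-44711566, plus strand: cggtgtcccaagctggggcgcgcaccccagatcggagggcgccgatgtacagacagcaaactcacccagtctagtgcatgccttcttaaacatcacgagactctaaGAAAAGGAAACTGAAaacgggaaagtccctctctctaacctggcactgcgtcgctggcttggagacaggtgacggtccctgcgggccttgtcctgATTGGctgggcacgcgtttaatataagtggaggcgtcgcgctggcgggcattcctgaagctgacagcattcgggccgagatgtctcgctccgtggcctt
HLA-B, chr6:31357130-31357429, minus strand: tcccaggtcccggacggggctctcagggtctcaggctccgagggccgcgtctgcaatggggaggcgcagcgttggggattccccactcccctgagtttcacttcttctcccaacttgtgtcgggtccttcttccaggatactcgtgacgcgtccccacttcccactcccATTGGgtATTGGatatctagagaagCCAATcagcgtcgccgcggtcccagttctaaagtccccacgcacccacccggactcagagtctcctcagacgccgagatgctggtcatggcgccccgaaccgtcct
HLA-C, chr6:31272043-31272342, minus strand: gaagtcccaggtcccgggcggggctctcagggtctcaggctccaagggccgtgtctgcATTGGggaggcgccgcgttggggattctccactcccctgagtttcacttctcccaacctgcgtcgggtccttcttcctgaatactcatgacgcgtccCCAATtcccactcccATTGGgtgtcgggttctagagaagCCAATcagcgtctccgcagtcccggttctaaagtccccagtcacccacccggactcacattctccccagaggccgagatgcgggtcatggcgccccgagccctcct
PSMB8, chr6:32843998-32844297, minus strand: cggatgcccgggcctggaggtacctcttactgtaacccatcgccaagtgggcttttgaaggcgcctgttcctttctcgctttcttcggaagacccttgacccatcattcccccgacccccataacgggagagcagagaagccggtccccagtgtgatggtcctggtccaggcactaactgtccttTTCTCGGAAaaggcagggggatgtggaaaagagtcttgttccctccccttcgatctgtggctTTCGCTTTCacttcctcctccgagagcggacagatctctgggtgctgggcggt
PSMB8, chr6:32844630-32844929, minus strand: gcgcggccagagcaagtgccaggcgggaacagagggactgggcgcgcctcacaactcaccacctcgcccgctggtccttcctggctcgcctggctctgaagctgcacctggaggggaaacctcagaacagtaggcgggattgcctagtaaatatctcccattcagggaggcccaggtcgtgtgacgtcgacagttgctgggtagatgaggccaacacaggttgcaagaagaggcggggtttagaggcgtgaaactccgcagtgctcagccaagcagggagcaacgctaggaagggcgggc

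The B2M window held GAAAAGGAA and GAAACTGAA, overlapping matches to the interferon element that run from base -144 to base -130 before the start site, and 1 CCAAT box. The HLA-B and HLA-C windows held no match to GAAANNGAA and 3 and 4 CCAAT boxes in either orientation. One PSMB8 window held TTCGCTTTC across its start site and TTCTCGGAA upstream. Matches to GAAANNGAA were found in 5 of the 10 windows (1 each of B2M, TAP1, TAP2, TAPBP and PSMB8). They were in 8.11% of all 35116 promoter windows of that length. TTCNNNGAA was in 2 of the 10 windows and 7.66% of all windows, GGGANTTCC in 1 (TAPBP) and 1.85%, and the CCAAT box in 5 and 34.6%. Each count is of 1 short pattern. Similar letters outside it were not searched, such as ggggattcccc in the HLA-B window and tttcacttc in the HLA-B and HLA-C windows. No lack of an NF-κB site or of an interferon element therefore follows for the genes without a match.

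Heavy chains bind the peptide and span the membrane. HLA-B, HLA-C and HLA-E fell in siFTO, each with every siFTO library below every control library. HLA-E, the nonclassical chain that presents leader peptides of other class I molecules to natural killer cells, stood at 197, 205 and 198 CPM in siFTO replicates 4, 5 and 6 and at 286, 304 and 248 CPM in control replicates 1, 2 and 3. Its siFTO values were nearly equal, and the lowest control was 248 CPM. The log2 fold change was -0.48 (standard error 0.09, adjusted p = 0.00375 from edgeR), and HLA-E kept its call in each of the 6 fits without 1 library (adjusted p of 0.00172 to 0.0344). With siFTO replicates 4 and 5 left out it was -0.50 (adjusted p = 0.0534).

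HLA-B, a classical heavy chain, stood at 225, 246 and 220 CPM in siFTO replicates 4, 5 and 6 and at 279, 364 and 253 CPM in control replicates 1, 2 and 3. The groups did not overlap, but siFTO replicate 5 and control replicate 3 were close, and control replicate 2 was the highest of all. Its log2 fold change was -0.38 (standard error 0.13, adjusted p = 0.0404 from edgeR). The call was lost without control replicate 1 (adjusted p = 0.0923), control replicate 2 (adjusted p = 0.103, log2 fold change -0.21), siFTO replicate 4 (adjusted p = 0.122) or siFTO replicate 5 (adjusted p = 0.0555). With siFTO replicates 4 and 5 left out the log2 fold change was -0.44 (adjusted p = 0.13).

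HLA-C, the other classical heavy chain of the set and a ligand of killer cell receptors, stood at 324, 365 and 400 CPM in siFTO replicates 4, 5 and 6 and at 426, 533 and 420 CPM in control replicates 1, 2 and 3. The siFTO replicate 6 lay just below the lowest control. Its log2 fold change was -0.34 (standard error 0.12, adjusted p = 0.0408 from edgeR), and only the fit without siFTO replicate 6 kept the call among those without 1 library. The call was lost without control replicate 1, 2 or 3, at adjusted p values of 0.0837, 0.131 and 0.0747 and a log2 fold change of -0.22 without control replicate 2, and also without siFTO replicate 4 or 5, at 0.17 and 0.0865. With siFTO replicates 4 and 5 left out it was -0.20 (adjusted p = 0.458). Once length and GC content were corrected for, an alternative chosen after seeing the data, HLA-C stood at -0.10 (adjusted p = 0.43) and HLA-B at -0.24 (adjusted p = 0.111), whereas HLA-E stayed at -0.41 (adjusted p = 0.00573). With library totals alone as scaling, HLA-C was at -0.22 (adjusted p = 0.122) and HLA-B at -0.25 (adjusted p = 0.103), neither of them called, and HLA-E at -0.36 (adjusted p = 0.00945).

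Reads of heavy chains can be shared with their relatives. Of the 50-base windows of the principal transcript in GENCODE 29, 2.54% for HLA-B, 6.79% for HLA-C and 5.13% for HLA-E also occur in transcripts of other genes, mostly other class I genes. How such reads were treated is not stated, and the alleles of 253J cells can differ from the reference, so single heavy chain values are uncertain. A pseudogene on the opposite strand, AL671883.2, also overlaps 542 exon bases of HLA-B and had 4 reads in siFTO replicate 6 and 0 in the other 5 libraries.

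B2M encodes β2-microglobulin, the light chain shared by all class I heavy chains. It was the gene of the set that differed most between siFTO libraries. B2M stood at 364 and 393 CPM in siFTO replicates 4 and 5, at 108 CPM in siFTO replicate 6, and at 136, 158 and 124 CPM in control replicates 1, 2 and 3. The groups overlapped, since siFTO replicate 6 was the lowest of the 6 libraries while the other siFTO libraries were the highest.

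Over all libraries its log2 fold change was 1.05 (standard error 0.36, adjusted p = 0.041 from edgeR). The call was lost on leaving out any of the controls (adjusted p of 0.181, 0.151 and 0.196) and without siFTO replicate 4 or 5 (adjusted p of 0.144 and 0.136, with a log2 fold change of 0.84 and 0.77). It was also lost in DESeq2 (adjusted p = 0.124) and limma voom (adjusted p = 0.126), and once length and GC content were corrected for (0.84, adjusted p = 0.0859). Without siFTO replicate 6 the log2 fold change was 1.43 (adjusted p = 1.88e-08), and with siFTO replicates 4 and 5 left out it turned to -0.36 (adjusted p = 0.145). The call of B2M as higher therefore rests on siFTO replicates 4 and 5.

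The ratio of light to heavy chain reads needs no scaling between libraries. Per 100 reads of HLA-B, HLA-C and HLA-E together there were 48.7 and 48.3 reads of B2M in siFTO replicates 4 and 5 and 13.2 in siFTO replicate 6, against 13.8, 13.1 and 13.4 in control replicates 1, 2 and 3. The siFTO replicate 6 thus lay within the controls, whose whole range was 13.1 to 13.8. The heavy chains summed to 747, 816 and 818 CPM in siFTO replicates 4, 5 and 6, against 922 to 1200.6 CPM in the controls, so all 3 siFTO libraries lay below the controls in heavy chains while only replicates 4 and 5 lay above them in B2M. This ratio was chosen after the values were seen and was not tested.

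**Figure D2:**
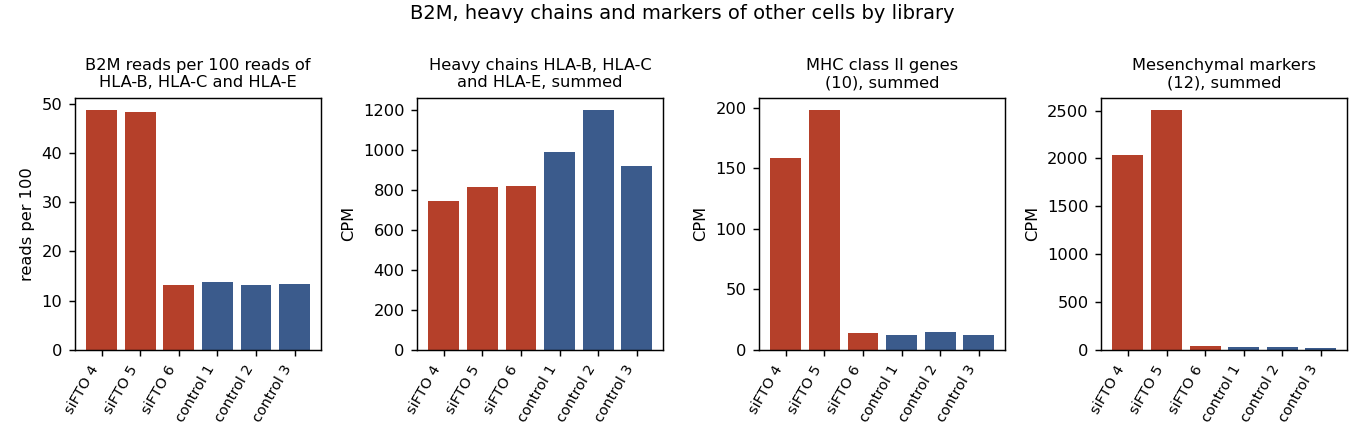
From left to right, B2M reads per 100 heavy chain reads, the summed CPM of HLA-B, HLA-C and HLA-E, the summed CPM of 10 MHC class II genes and the summed CPM of 12 mesenchymal markers. Each bar is 1 library, with siFTO left of control. The ratio is 48.7 and 48.3 in siFTO replicates 4 and 5 and 13.1 to 13.8 in the other 4 libraries, and the marker sums are high in the same 2 libraries.

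Several genes of the MHC class II, mesenchymal and leukocyte lists, though not all, were also high in siFTO replicates 4 and 5. The 10 MHC class II genes, which professional antigen-presenting cells carry and interferon-γ can induce elsewhere, summed to 158 and 198 CPM in siFTO replicates 4 and 5 and 14 CPM in siFTO replicate 6, against 11.9 to 14.6 CPM in the controls. The class II chaperone CD74 stood at 61.1 and 75.3 CPM in siFTO replicates 4 and 5 and at 0.0729 CPM in siFTO replicate 6, against 0.093 to 0.258 CPM in the controls. The class II transactivator CIITA stood at 5.45, 6.84 and 1.68 CPM in siFTO replicates 4, 5 and 6, against 1.61 to 2.42 CPM in the controls. At least 10 CPM were reached by 5 of the 10 class II genes and 7 of the 12 mesenchymal markers in each of siFTO replicates 4 and 5. Vimentin (VIM) stood at 636 and 730 CPM there and at 0.292 CPM in siFTO replicate 6, against 0.568 to 1.02 CPM in the controls. The mesenchymal marker PDGFRB did not rise, at 6.93, 6.78 and 3.50 CPM in siFTO replicates 4, 5 and 6, against 4.76 to 7.63 CPM in the controls. COL3A1 and THY1 stayed at 0.141 CPM or less in every library, and LUM and DCN at 1.41 CPM or less. The 12 leukocyte markers summed to 30.8, 30.4 and 7.22 CPM in siFTO replicates 4, 5 and 6, against 4.24 to 6.05 CPM in the controls. Most of the higher sum came from LCP1, an actin-bundling protein (17.2, 17.3 and 0.0729 CPM in siFTO replicates 4, 5 and 6, against 0 to 0.093 CPM in the controls), and CSF1R, a receptor of macrophages (7.64, 7.65 and 0.364 CPM in the same siFTO libraries, and at most 0.402 CPM in a control). CD3E and MS4A1 were at 0 counts in all 6 libraries, and the leukocyte antigen PTPRC was at 1 count in siFTO replicate 4 and 0 in the other 5. The part of these markers in the B2M result was not tested, and in bulk RNA a change in the make-up of the cells and a change of RNA per cell cannot be told apart.

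Genes with a pattern like that of B2M were sought after its values were seen. Among 10335 genes whose log2 CPM averaged 3 or more, the nearest by root mean square distance of the log2 CPM differences from the control mean, over 6 libraries, were HTRA1 (0.059), CLCF1 (0.097), FOXL1 (0.103), MYL9 (0.133) and MLPH (0.149). HTRA1, a secreted serine protease, stood at 96.7, 108 and 28.1 CPM in siFTO replicates 4, 5 and 6 and at 37.5, 44.7 and 34.8 CPM in control replicates 1, 2 and 3. MYL9, a myosin light chain of contractile cells, stood at 35.7, 40.2 and 10.6 CPM in siFTO replicates 4, 5 and 6, against 11.4, 16.3 and 10.54 CPM in control replicates 1, 2 and 3. Nearest to the median pattern of the 9 genes were EIF3G (0.031), SF3B6 (0.037), NKAP (0.037), SRI (0.039) and TERF2IP (0.044). That median pattern was shallow, at -0.21, -0.18 and -0.36 in siFTO replicates 4, 5 and 6 and -0.02, 0.19 and -0.12 in control replicates 1, 2 and 3 on the log2 scale.

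**Figure D3:**
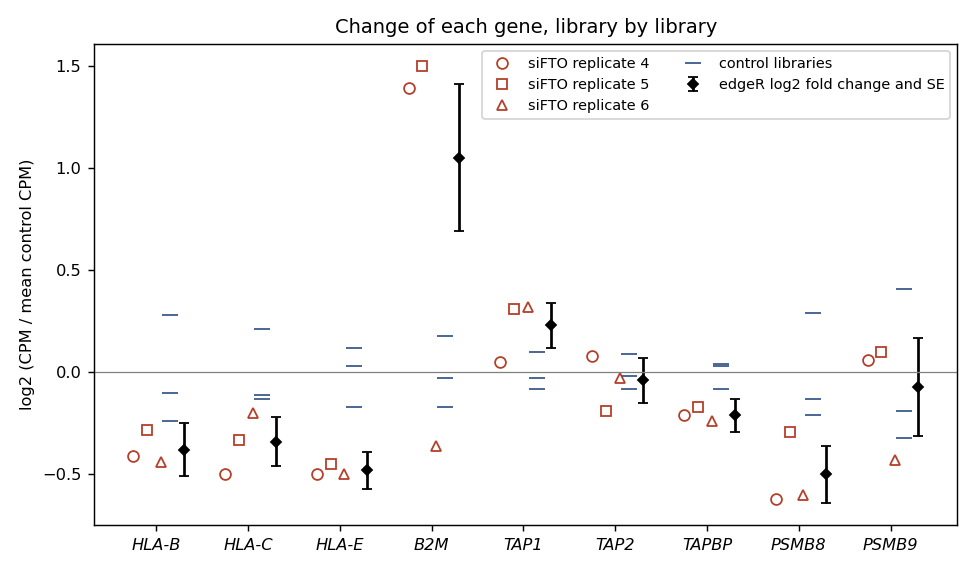
Log2 CPM of each gene relative to the mean of the 3 controls. Open symbols are siFTO replicates 4 (circle), 5 (square) and 6 (triangle), ticks are the control libraries, and black diamonds with bars are the edgeR log2 fold change and its standard error. HLA-E lies at -0.50, -0.45 and -0.50 in the 3 siFTO libraries, whereas B2M lies far above 0 in siFTO replicates 4 and 5 and at -0.36 in siFTO replicate 6.

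TAP1 and TAP2 form the peptide transporter of the endoplasmic reticulum, and neither passed the test. TAP1 stood at 28.2, 33.6 and 34.0 CPM in siFTO replicates 4, 5 and 6 and at 29.1, 25.8 and 26.7 CPM in control replicates 1, 2 and 3. The siFTO replicates 5 and 6 were above each control, and siFTO replicate 4 lay among the controls. Its log2 fold change was 0.23 (standard error 0.11, adjusted p = 0.11 from edgeR), and TAP1 passed with library totals alone as scaling (0.35, adjusted p = 0.0316).

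TAP2 stood at 23.1, 19.2 and 21.4 CPM in siFTO replicates 4, 5 and 6 and at 23.4, 21.6 and 20.6 CPM in control replicates 1, 2 and 3. The groups covered nearly the same range. Its log2 fold change was -0.04 (standard error 0.11, adjusted p = 0.796 from edgeR). A gene model on the same strand in GENCODE 29, AL669918.1, shares 80.2% of the 50-base windows of the TAP2 transcript and was at 0 counts in all 6 libraries, so reads that fit both models may be missing from the TAP2 count.

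Tapasin, encoded by TAPBP, bridges TAP and empty heavy chains. TAPBP stood at 117, 120 and 114 CPM in siFTO replicates 4, 5 and 6 and at 138, 139 and 128 CPM in control replicates 1, 2 and 3. Every siFTO library lay below every control library. The log2 fold change was -0.21 (standard error 0.08, adjusted p = 0.0578 from edgeR), which did not pass, and it passed with upper-quartile scaling (adjusted p = 0.0403).

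PSMB8 and PSMB9 replace the constitutive catalytic subunits PSMB5 and PSMB6 in the immunoproteasome, which favours peptides that class I molecules bind. PSMB8 fell in siFTO. Its level was 33.9, 42.4 and 34.3 CPM in siFTO replicates 4, 5 and 6 and 45.0, 63.4 and 47.6 CPM in control replicates 1, 2 and 3. The groups did not overlap, and control replicate 2 was well above the rest. The log2 fold change was -0.50 (standard error 0.14, adjusted p = 0.0211 from edgeR). The call was lost without control replicate 2 (-0.33, adjusted p = 0.086), control replicate 3 (adjusted p = 0.0633) or siFTO replicate 4 (adjusted p = 0.0856). With siFTO replicates 4 and 5 left out it stood at -0.60 (adjusted p = 0.0591).

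PSMB9 was the scarcest gene of the set and did not pass. Its counts were 75, 88 and 52 reads in siFTO replicates 4, 5 and 6 and 48, 101 and 79 reads in control replicates 1, 2 and 3. That is 5.31, 5.47 and 3.79 CPM in siFTO and 4.47, 6.76 and 4.08 CPM in the controls. The log2 fold change was -0.07 (standard error 0.24, adjusted p = 0.84 from edgeR), and its sign turned with library totals as scaling (0.06), without control replicate 2 (0.19) and without siFTO replicate 6 (0.07).

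Ratios to the constitutive partners were compared between libraries. There were 27.9, 29.7 and 26.5 reads of PSMB8 per 100 reads of PSMB5 in siFTO replicates 4, 5 and 6, and 33.6, 37.5 and 33.9 in control replicates 1, 2 and 3. The log2 ratio was lower by 0.32 in siFTO, with 3 of 3 libraries below the controls (value -0.32, exact two-sided permutation p = 0.1, adjusted p = 0.3 over 3 ratios), and 0.1 is the smallest p that 3 against 3 libraries allow. PSMB9 had 3.80, 3.48 and 2.99 reads per 100 of PSMB6 in siFTO replicates 4, 5 and 6, against 2.92, 3.61 and 2.63 in control replicates 1, 2 and 3 (exact permutation p = 0.4, adjusted p = 0.4). PSMB10, the remaining inducible subunit, had 0.835, 0.651 and 0.445 reads per 100 of PSMB7 in siFTO replicates 4, 5 and 6, against 0.32, 0.375 and 0.515 in control replicates 1, 2 and 3 (exact permutation p = 0.2, adjusted p = 0.3).

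Levels of different genes are compared per kilobase of the principal transcript in GENCODE 29, which may not be the isoform these cells use. In the controls HLA-C came first with 274 to 347 CPM per kb and HLA-B next with 164 to 235. HLA-E (95.5 to 117), B2M (72.5 to 92.4) and TAPBP (67.7 to 73.8) followed, and the ranges of B2M and TAPBP overlapped. PSMB8 (40.1 to 56.4), TAP1 (8.71 to 9.84), TAP2 (8.26 to 9.35) and PSMB9 (5.22 to 8.65) were lower, and the ranges of these last 3 genes overlapped. In siFTO replicate 6 the 9 genes stood in that same order, with HLA-C at 261 CPM per kb, B2M at 63.4 and TAPBP at 60.4. In siFTO replicates 4 and 5 B2M stood at 213 and 231 CPM per kb, beside HLA-C at 211 and 238 and above HLA-B at 145 and 159.

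All of the 9 genes except B2M lie on the short arm of chromosome 6 in the MHC, whereas B2M lies on chromosome 15 (44711487 to 44718877, plus strand). Positions are those of the principal transcript in GENCODE 29 on GRCh38. The submitters' notes name hg19 and GRCh37 and the count files hold no coordinates, so reads may have been counted on other positions than these. HLA-B (31353872 to 31357187) and HLA-C (31268749 to 31272086) lie on the minus strand, HLA-E (30489467 to 30494205) on the plus strand and TAPBP (33303573 to 33314212) on the minus strand. TAP2 (32821833 to 32838727), PSMB8 (32840717 to 32844047), TAP1 (32845209 to 32853978) and PSMB9 (32854161 to 32859585) are neighbours. The RefSeq start sites of PSMB9 and TAP1 are 488 bases apart on opposite strands, and neither of these neighbours was called. The antisense RNA PSMB8-AS1 overlaps 618 exon bases of PSMB8 and 456 of TAP1, and PSMB9 overlaps 139 of PSMB8, and without a stated strand setting their reads cannot be told apart. PSMB8-AS1 had 17, 17 and 19 reads in siFTO replicates 4, 5 and 6 and 20, 32 and 36 reads in control replicates 1, 2 and 3.

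The remaining genes of the class I route were taken from lists of 55 genes, of which 54 were tested. Of these, 12 were higher and 9 lower in siFTO, against 19.5% and 17.9% of all genes. Of the 21 called, 10 (4 higher and 6 lower) kept the call in each of the 6 fits without 1 library. The share of all called genes that did so was not computed. The median log2 fold change of the 54 genes was 0.21. With siFTO replicates 4 and 5 left out, 3 of the 55 genes then tested were higher (MICA, MICB and PSME3) and 2 lower (ULBP1 and RFXANK), against 6.17% and 5.89% of all genes in that fit. With library totals alone as scaling, HLA-F (-0.29, adjusted p = 0.0784), RFXAP (-0.30, adjusted p = 0.0628), NFYB (-0.18, adjusted p = 0.21) and PTPN2 (-0.21, adjusted p = 0.0995) were not called.

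Among other heavy chains and class I-like ligands, 4 of 12 tested were higher and 3 lower, against 19.5% and 17.9% of all genes tested. The class I pseudogene HLA-H, which may share reads with class I genes, had -0.68 (adjusted p = 0.00719), and -0.28 (adjusted p = 0.0904) once length and GC content were corrected for. The nonclassical chain HLA-F had -0.41 (adjusted p = 0.026, lost without control replicate 1 or 2 or siFTO replicate 4 or 5, with adjusted p of 0.0635, 0.0636, 0.0945 and 0.0651). Stress ligands of the natural killer receptor NKG2D did not move together. MICB rose to 24.6, 25.7 and 26.8 CPM in siFTO replicates 4, 5 and 6, against 11.1, 11.5 and 13.4 CPM in control replicates 1, 2 and 3 (log2 fold change 1.10, adjusted p = 0.000372 from edgeR, and 1.16 with adjusted p = 0.0018 with siFTO replicates 4 and 5 left out).

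MICA also rose, to 39.5, 40.3 and 37.2 CPM in siFTO replicates 4, 5 and 6, against 24.9 to 27.3 CPM in the controls (0.60, adjusted p = 0.00149 from edgeR). ULBP1 fell to 15.7, 15.1 and 9.33 CPM in siFTO replicates 4, 5 and 6, against 21.3 to 29.3 CPM in the controls (-0.97, adjusted p = 0.00432 from edgeR). MICA, MICB and ULBP1 kept their calls in each fit without 1 library and with siFTO replicates 4 and 5 left out. ULBP3 had 0.70 (adjusted p = 0.0315 from edgeR, lost without control replicate 1, 2 or 3 or siFTO replicate 4 or 5, with adjusted p of 0.0679, 0.103, 0.0927, 0.0788 and 0.0752). MR1, which presents vitamin B metabolites to mucosal T cells, stood at 8.07, 10.3 and 3.21 CPM in siFTO replicates 4, 5 and 6, against 2.28 to 2.61 CPM in the controls (1.59, adjusted p = 0.00767 from edgeR, and 0.43 with adjusted p = 0.416 with siFTO replicates 4 and 5 left out). The MR1 call was lost without any of the controls (adjusted p of 0.0631, 0.0743 and 0.069). HLA-G, at 1, 5 and 9 reads in siFTO replicates 4, 5 and 6 and 9, 10 and 20 reads in control replicates 1, 2 and 3, had -1.31 (adjusted p = 0.0799). At these few reads its value moved with single libraries, to -2.09 (adjusted p = 0.01) without siFTO replicate 6, -0.85 (adjusted p = 0.23) without siFTO replicate 4 and -0.38 (adjusted p = 0.714) with siFTO replicates 4 and 5 left out. The iron regulator HFE had 0.25 (adjusted p = 0.356).

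Of 9 genes of peptide loading and trimming, 2 were higher and none lower, against 19.5% and 17.9% of all genes tested. Both higher genes encode lectin chaperones of the endoplasmic reticulum. Calreticulin (CALR) stood at 1901.6, 1822.7 and 1934.8 CPM in siFTO replicates 4, 5 and 6, against 1353.2 to 1596.0 CPM in the controls (0.37, adjusted p = 0.0083 from edgeR), and kept its call in each fit without 1 library. Calnexin (CANX) had 0.36 (adjusted p = 0.0106 from edgeR, and 0.0563 without siFTO replicate 4), and 0.16 (adjusted p = 0.144) once length and GC content were corrected for. PDIA3, the disulphide isomerase of the loading complex, had -0.16 (adjusted p = 0.167), and the trimming peptidase ERAP1 had 0.29 (adjusted p = 0.0871). Among the proteasome genes, 1 of 4 of the inducible group and activator was lower, against 17.9% of all genes tested. That gene was the activator subunit PSME1 (-0.50, adjusted p = 0.00535 from edgeR), which stood at 155, 142 and 152 CPM in siFTO replicates 4, 5 and 6, against 193 to 244 CPM in the controls, while its partner PSME2 had -0.09 (adjusted p = 0.61) and PSMB10, at 10 to 36 reads a library, had 0.63 (adjusted p = 0.149), and 0.85 (adjusted p = 0.0368) without siFTO replicate 6. Another list of 4 genes held the constitutive catalytic subunits and the nuclear activator PSME3. In it 1 gene was higher, PSME3 (0.48, adjusted p = 0.00409 from edgeR), against 19.5% of all genes tested. None of the catalytic subunits was called. PSMB5 had -0.17 (adjusted p = 0.225) and PSMB6 had -0.23 (adjusted p = 0.127).

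Of 15 transcription factors of class I genes, 3 were higher and 3 lower, near the 19.5% and 17.9% of all genes tested. The class I transactivator NLRC5 stood at 19.3, 21.1 and 15.8 CPM in siFTO replicates 4, 5 and 6, against 11.4 to 14.2 CPM in the controls (0.52, adjusted p = 0.0177 from edgeR). The NLRC5 call was lost without any of the controls, without siFTO replicate 4 and without siFTO replicate 5 (adjusted p of 0.0587, 0.0806, 0.0631, 0.063 and 0.0676), and with both of these siFTO libraries left out it stood at 0.28 (adjusted p = 0.362).

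Within the RFX complex, through which NLRC5 binds class I promoters, RFXANK fell to 49.8, 48.9 and 47.8 CPM in siFTO replicates 4, 5 and 6, against 68.2, 93.3 and 67.4 CPM in control replicates 1, 2 and 3 (-0.64, adjusted p = 0.00402 from edgeR). RFXAP had -0.42 (adjusted p = 0.0124) and RFX5 had 0.25 (adjusted p = 0.107). RFXANK and RFXAP kept their calls in each fit without 1 library. The NF-κB subunit RELA had 0.34 (adjusted p = 0.0155, lost without control replicate 1, 2 or 3 or siFTO replicate 4 or 5, with adjusted p of 0.0526, 0.0624, 0.0709, 0.0537 and 0.0576), and 0.21 (adjusted p = 0.329) with siFTO replicates 4 and 5 left out. The interferon regulatory factor IRF9 had 0.70 (adjusted p = 0.0497) and passed in none of the 6 fits without 1 library (adjusted p of 0.053 to 0.169), nor in DESeq2 (adjusted p = 0.111) or limma voom (adjusted p = 0.0524). The CCAAT-binding subunit NFYB had -0.30 (adjusted p = 0.0399, lost without control replicate 1, 2 or 3 or siFTO replicate 5 or 6, with adjusted p of 0.0772, 0.0941, 0.121, 0.143 and 0.0677), and IRF1 had 0.13 (adjusted p = 0.394).

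Of 10 interferon receptor and kinase genes, 2 were higher and 2 lower, near the 19.5% and 17.9% of all genes tested. IFNGR2, a chain of the interferon-γ receptor, stood at 42.0, 42.0 and 43.9 CPM in siFTO replicates 4, 5 and 6, against 52.4 to 63.4 CPM in the controls (-0.42, adjusted p = 0.00853 from edgeR), and kept its call in each fit without 1 library. Its partner IFNGR1 had 0.13 (adjusted p = 0.357), and IFNAR1, a chain of the type I interferon receptor, had 0.17 (adjusted p = 0.157). The receptor kinase JAK1 had 0.54 (adjusted p = 0.00632, and 0.0559 without control replicate 3). JAK2 stood at 6.15, 5.60 and 2.92 CPM in siFTO replicates 4, 5 and 6, against 2.01 to 3.26 CPM in the controls (0.99, adjusted p = 0.0276 from edgeR, and 0.25 with adjusted p = 0.687 with siFTO replicates 4 and 5 left out). The JAK2 call was lost without any of the controls, without siFTO replicate 4 and without siFTO replicate 5 (adjusted p of 0.0681, 0.154, 0.14, 0.121 and 0.0841), and once length and GC content were corrected for (0.78, adjusted p = 0.0567). PTPN2, a phosphatase that acts on JAK kinases, had -0.33 (adjusted p = 0.015, lost without control replicate 3 or siFTO replicate 5, with adjusted p of 0.0632 and 0.0538).

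**Figure D4:**
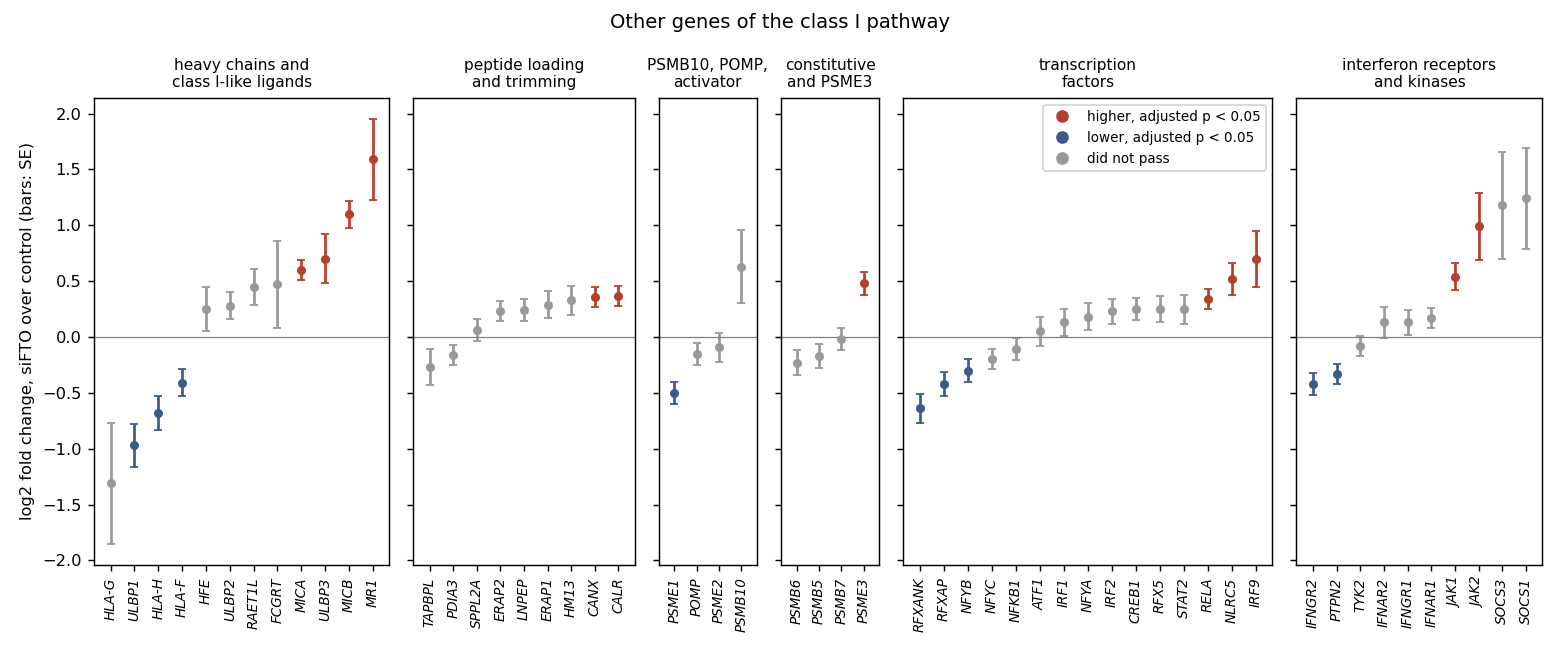
Log2 fold change of siFTO over control for the 54 tested genes of the 6 other lists, with the standard error as bars. Red points were higher and blue points lower at an adjusted p under 0.05 from edgeR, and grey points did not pass. The values run from -1.31 for HLA-G, which did not pass and moved with single libraries, to 1.59 for MR1.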

How the data were processed

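The authors deposited counts of reads per gene, not normalized, in 1 file per library. TopHat2 2.0.11, HTSeq, hg19 and GRCh37 are named in the submitters' processing notes. An annotation release, a version of HTSeq, a read length and the strandedness were not given in the sources used here. Symbols were matched by Ensembl identifier without version for 56321 rows (93.1%). Low genes were removed with edgeR 4.0.16 under R 4.3.3 (filterByExpr, minimum count 10, minimum total 15), libraries were scaled by TMM and a quasi-likelihood model was fitted with the group as the only term. Tests were two-sided, with Benjamini-Hochberg adjustment over all 14965 genes and a threshold of 0.05. Every adjusted p in the text is of this kind unless another tool or ratio is named. A fit with libraries left out or another filter was filtered anew and adjusted over its own genes. These were 15033 to 16243 genes in the fits without 1 library. A standard error is the log2 fold change divided by the square root of F. Alternatives were RLE, upper-quartile and total scaling, other filters, DESeq2 1.42.0, limma 3.58.1 voom, each library left out, siFTO replicates 4 and 5 left out, and a spline correction for length and GC content, added after seeing the data. The test was run on simulated data first. Named pathway genes were, in each list, up to 4 calls in each direction with the largest change and 2 others. The genes, lists and rules were chosen with earlier results of these data known. Some genes of these lists are not reported here.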

Additional observations from a re-analysis of the deposited data

How the results depend on the processing

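No paired analysis was possible because the groups share no replicate numbers. The number of class I genes called higher (1) was 2 with library totals alone, where TAP1 passed too, and 0 in DESeq2, in limma voom, once length and GC content were corrected for and with siFTO replicates 4 and 5 left out. It ranged from 0 to 1 when each library was left out. The number called lower (4) was 2 with library totals alone, 2 after that correction, 0 with siFTO replicates 4 and 5 left out, and 1 to 4 when each library was left out. Pathway genes higher (12) were 24 with library totals, 3 with siFTO replicates 4 and 5 left out and 5 to 17 when each library was left out. Pathway genes lower (9) were 5 and 2 in the same settings. The share of all genes called moved too. It was 27.3% higher and 11.9% lower with library totals, and 14.1% and 20.1% once length and GC content were corrected for. In DESeq2 it was 18% and 16.6%, and in limma voom 18% and 17.4%. When each library was left out it was 8.55% to 23.6% higher and 9.96% to 18% lower. FTO was at -0.46 with library totals (adjusted p = 0.0576) and at -0.74 to -0.47 when each library was left out. HLA-B, HLA-C, HLA-E and PSMB8 were below 0 in every fit, and HLA-E and PSMB8 passed with each other scaling, filter and tool on all 6 libraries. Signs turned for B2M (-0.36) and PSMB10 (-0.06) with siFTO replicates 4 and 5 left out, for TAP2 (0.08), PSMB9 (0.06) and PSME2 (0.03) with library totals, for TAP2 (0.03) without siFTO replicate 5, for PSMB9 without control replicate 2 (0.19) or siFTO replicate 6 (0.07), for PSME2 without siFTO replicate 6 (0.04), and for IRF1 (-0.02) and IFNAR1 (-0.04) after the correction. When each library was left out, TAP2 ranged from -0.11 to 0.03, PSMB9 from -0.21 to 0.19 and PSME2 from -0.17 to 0.04. The cause was not tested. All genes called were 1896 with siFTO replicates 4 and 5 left out, 2995 without control replicate 1, 3137 without control replicate 2, 3553 without control replicate 3, 3291 without siFTO replicate 4, 4172 without siFTO replicate 5 and 6754 without siFTO replicate 6, against 5597 in all 6 libraries. With 3 libraries a group the test of a ratio cannot go below 0.1, and at 48 to 101 reads PSMB9 has the fewest reads of the set.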
